A study of Mus musculus with 9 samples.

Results

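Transcript levels of 7 matrix metalloproteinase genes (Mmp2, Mmp8, Mmp9, Mmp12, Mmp13, Mmp14 and Mmp19) and 3 genes for their tissue inhibitors (Timp1, Timp2 and Timp3) were examined in sorted lung macrophages. All 10 were looked up by symbol among the 24346 gene symbols of the expression tables, and all 10 were found. RNA sequencing had been done on 3 populations with 3 samples each, all from female wild-type C57BL/6 mice at postnatal week 10. Ctrl-AM were alveolar macrophages (AMs) from mice given vehicle, Tumor-AM were AMs from mice whose left lung had received Lewis lung carcinoma (LLC) cells, and Tumor-macrophage were the tumor-associated macrophages from such mice. LLC is a lung cancer line of the C57BL/6 strain, and the cells used here carried the fluorescent protein tdTomato and were injected in Matrigel, a basement membrane extract. Both populations were gated as autofluorescent CD45+ cells, with Siglec-F separating the AMs (positive) from the tumor-associated macrophages (negative, with F4/80 and CD11b). According to the study's methods, lungs were digested with collagenase and dispase before sorting, and tumor-bearing and control mice were bred separately, so that housing and tumor cannot be told apart between Ctrl-AM and the other groups.

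Matrix metalloproteinases (MMPs) are zinc-dependent proteases that cut collagens, elastin, gelatin and other matrix and cell surface proteins. Most are secreted as inactive proenzymes, while MMP14 is anchored in the cell membrane. The tissue inhibitors of metalloproteinases (TIMPs) bind the active site. TIMP2 has a second role, since it bridges proMMP2 to MMP14 at the cell surface, where proMMP2 is activated. Macrophages are a known source of several of these proteins, MMP12 (macrophage elastase) among them. Transcript levels do not report secretion, proenzyme cleavage or inhibitor binding.

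Levels are given in FPKM (fragments scaled to transcript length and to library size), so that genes can be compared with each other. Libraries were of similar size, with estimated depths from 0.905 to 1.14 times that of Ctrl-AM 1, and counting error is therefore largest for the rarest transcripts. Mmp13 in AMs rested on an estimated 1.9 to 7.7 reads per sample. The labelled cell types matched their markers. The summed level of 10 AM markers ran from 27449 to 43792 FPKM in the 6 AM samples and from 213 to 503 for Tumor-macrophage, and that of 10 monocyte-derived macrophage markers from 125 to 753 in AMs and from 35746 to 48780 for Tumor-macrophage. These are bulk samples, in which fewer cells of a type and less RNA per cell cannot be told apart.

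By mean level the leading genes were the same 4 in both AM groups and differed in Tumor-macrophage. In Ctrl-AM the leading genes were Mmp19, Mmp8, Timp2 and Mmp12, in that order, the last 2 with overlapping ranges. In Tumor-AM Mmp19 came first, Timp2 and Mmp8 followed with overlapping ranges, and Mmp12 was next. There the range of Mmp12 overlapped with that of Mmp14. In Tumor-AM 1 and 3 Mmp14 was the higher of these genes (12.4 and 15.7 FPKM, against 9.97 and 14.4 for Mmp12). In Tumor-macrophage the order was Timp2, Mmp14, Mmp12 and Mmp19, and Mmp19 overlapped with Mmp2 in its range. The rank of Mmp14 among the 10 was 8 for Ctrl-AM, 5 for Tumor-AM and 2 for Tumor-macrophage, and in Ctrl-AM its range overlapped with those of Mmp2 and Mmp9. Mmp13 was last in both AM groups and Timp3 in Tumor-macrophage.

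**Figure D1:**
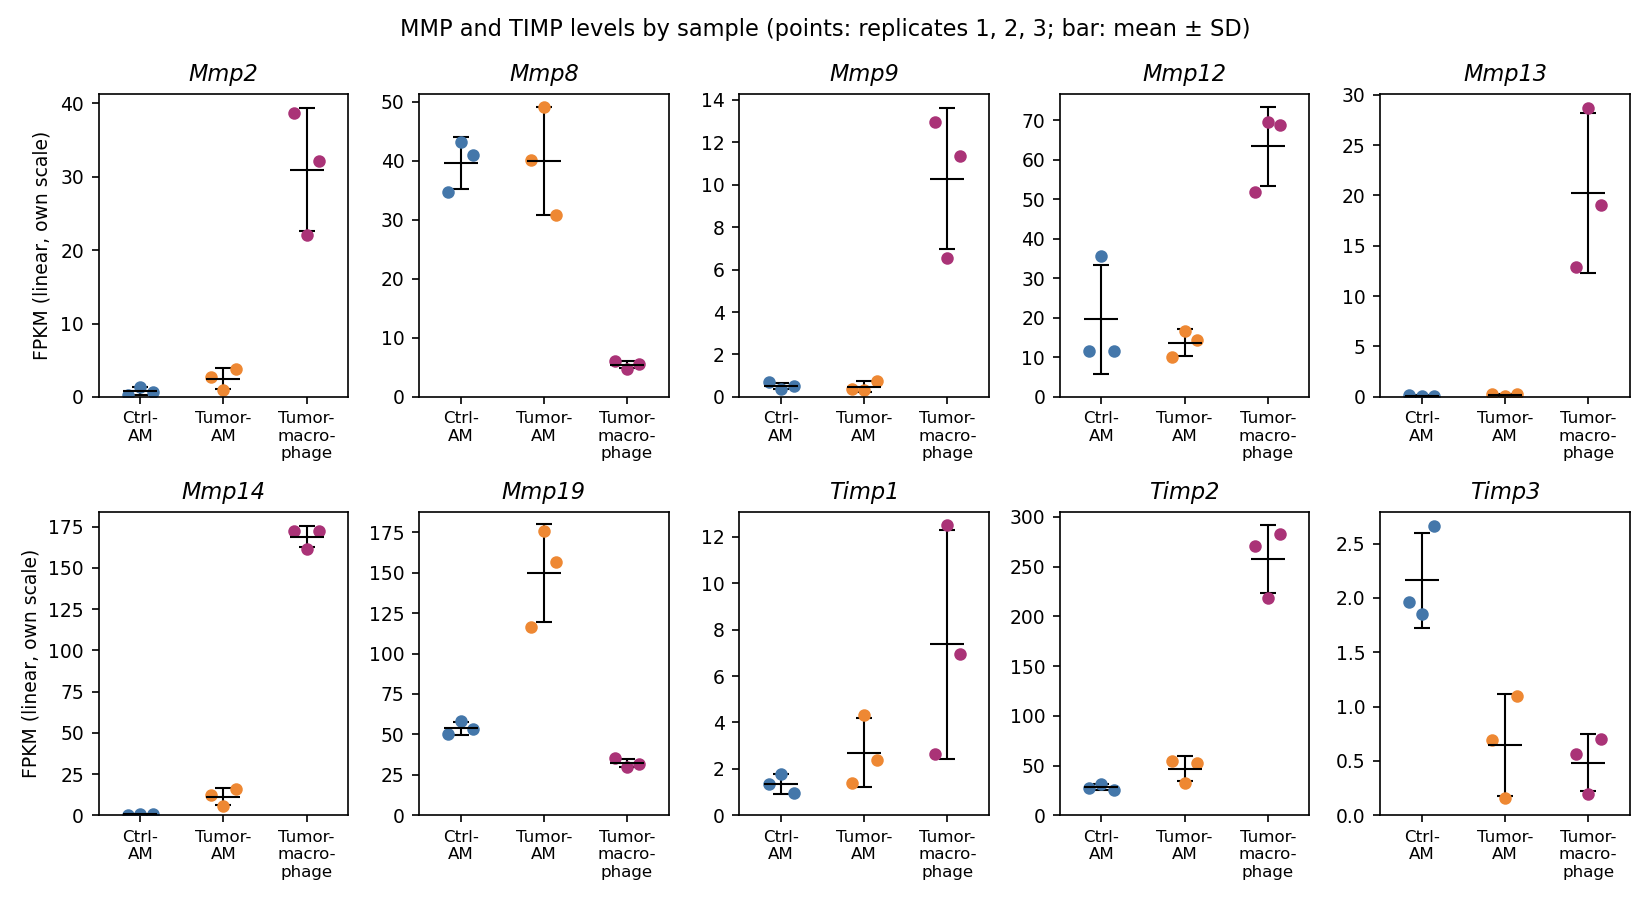
FPKM of each of the 10 genes (y axis, linear from 0, with its own scale in each panel) in the 3 groups (x axis). Points are replicates 1, 2 and 3 from left to right, and bars are the mean ± SD. Tumor-AM is highest for Mmp19, Tumor-macrophage is highest for Mmp2, Mmp9, Mmp12, Mmp13, Mmp14 and Timp2 without overlap with either AM group, and Timp3 is highest in Ctrl-AM.

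The groups were compared with limma on log2(FPKM + 1), with p-values adjusted over the 10686 genes that had at least 1 FPKM in at least 3 of the 9 samples. All 10 genes passed this filter, Mmp9 and Mmp13 through the Tumor-macrophage samples alone, so that these 2 had to differ there and their calls are no support. Timp3 reached 1 FPKM in 3 Ctrl-AM, 1 Tumor-AM and 0 Tumor-macrophage samples. It thus passed only because it was high in Ctrl-AM, and its calls relative to Ctrl-AM are no support either. Between Tumor-AM and Ctrl-AM, 3 of the 10 were higher in Tumor-AM (Mmp14, Mmp19 and Timp2) and Timp3 was lower, that is 4 of 10 called, compared with 10.3% of all genes tested (7.11% higher and 3.18% lower). These same 4 were the ones whose groups did not overlap, as was so for 32.3% of all genes. Between Tumor-macrophage and Tumor-AM, 8 of 10 were called, 6 higher (Mmp9 and Mmp13 among them) and 2 lower. Of all genes, 48.6% were called (24.2% higher and 24.4% lower). The groups did not overlap for 8 genes, again with Mmp9 and Mmp13 among them, where 55.3% of all genes did not. Between Tumor-macrophage and Ctrl-AM all 10 were called, 7 higher (Mmp9 and Mmp13 among them) and 3 lower (Timp3 among them). Of all genes, 54.8% were called (27.7% higher and 27.1% lower). All 10 did not overlap, where 62.3% of all genes did not. The median log2 change of the 10 genes was 0.33, 2.30 and 2.33 in these comparisons, beside 0.01, 0.00 and −0.01 over all genes tested. These medians include Mmp9, Mmp13 and Timp3. The comparisons share samples pairwise and are therefore not independent of each other.

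**Figure D2:**
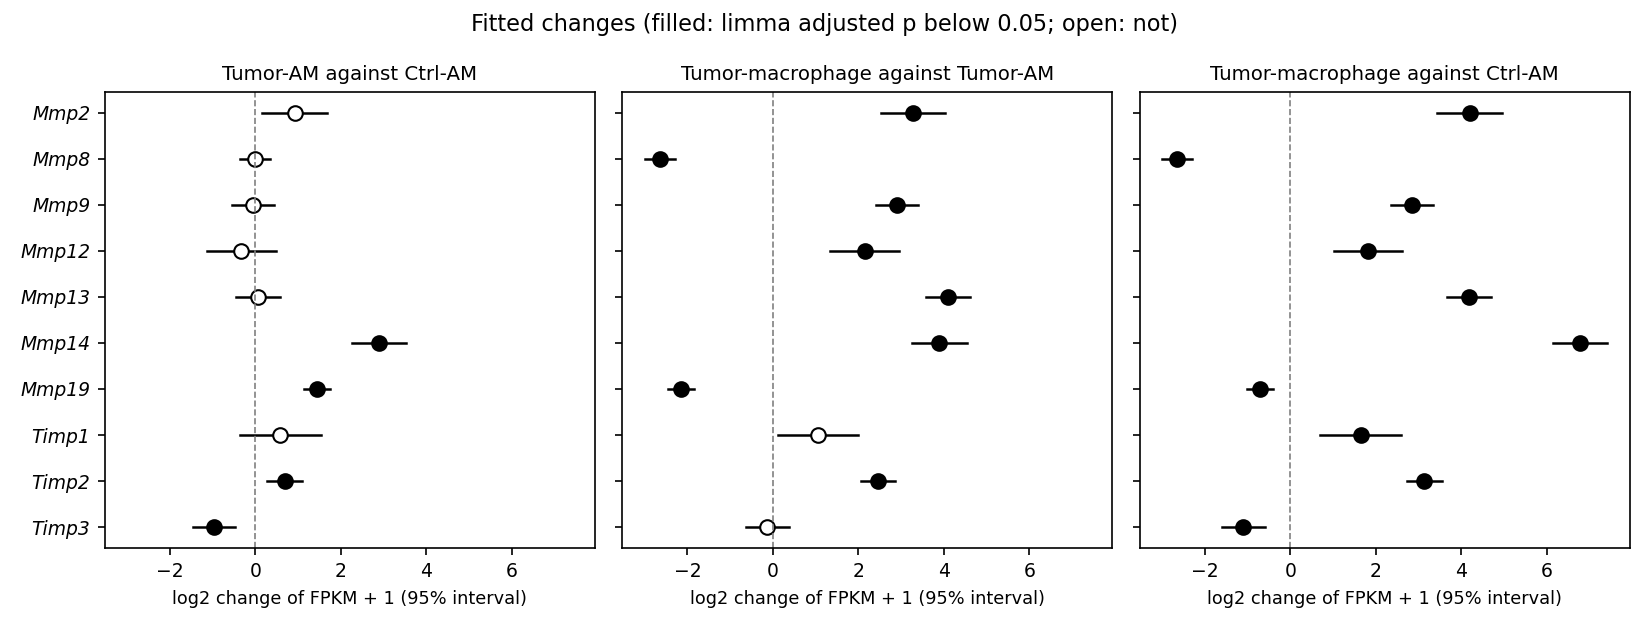
Fitted log2 change of FPKM + 1 (x axis) of the 10 genes (y axis) in the 3 comparisons, with 95% intervals of the limma fit as lines. Filled points have an adjusted p below 0.05. Those of Mmp9 and Mmp13 are no support, since both genes passed the filter through Tumor-macrophage alone. Those of Timp3 are no support either, since it passed only through its level in Ctrl-AM. Mmp14 lies to the right of 0 in all 3 panels, and Mmp19 is at 1.44 in the first and −2.15 in the second.

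The MMP14, MMP2 and TIMP2 genes encode the parts of the cell surface activation complex, and all of them were at their highest in Tumor-macrophage. Mmp14 (ENSMUSG00000000957.11) is found at chr14:54431612-54445364 (plus strand) of GRCm38, the assembly also called mm10, and its main coding transcript has 10 exons. Its level was 0.204, 0.866 and 0.627 FPKM for Ctrl-AM 1 to 3, 12.4, 5.64 and 15.7 for Tumor-AM 1 to 3, and 172, 161 and 173 for Tumor-macrophage 1 to 3. The 3 groups did not overlap at any point, and the Tumor-macrophage samples differed least among themselves in relative terms. The mean was 0.566 ± 0.335 FPKM for Ctrl-AM, 11.3 ± 5.13 for Tumor-AM and 169 ± 6.35 for Tumor-macrophage (SD, n = 3 each). Tumor-AM exceeded Ctrl-AM 19.9-fold in mean FPKM, a log2 change of 2.89 ± 0.29 (SE, adjusted p = 0.000365 by limma). Tumor-macrophage exceeded Tumor-AM 15-fold, a log2 change of 3.89 ± 0.29 (SE, adjusted p = 1.14e-06 by limma). In rank among the genes tested, Mmp14 moved from above 3.66% of them in Ctrl-AM to above 54.5% in Tumor-AM and 94.6% in Tumor-macrophage.

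Mmp2 encodes a gelatinase that also cuts basement membrane collagen. It was at 0.287, 1.36 and 0.630 FPKM for Ctrl-AM, 2.72, 0.901 and 3.74 for Tumor-AM, and 38.7, 22.0 and 32.2 for Tumor-macrophage. The AM groups overlapped through Tumor-AM 2, and Tumor-macrophage was above both. Between Tumor-AM and Ctrl-AM the log2 change of 0.92 ± 0.34 was not past the threshold (SE, 95% interval 0.16 to 1.67, adjusted p = 0.122 by limma), and it passed in 1 of 18 other settings, without Tumor-AM 2 (1.30, limma adjusted p = 0.0222). Leaving out other samples gave as little as 0.64, and adjusted p-values over all settings reached 0.338. Tumor-macrophage exceeded Tumor-AM 12.6-fold in mean FPKM, a log2 change of 3.28 ± 0.34 (SE, adjusted p = 1.67e-05 by limma).

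Timp2 was the leading inhibitor in every sample and the most abundant of the 10 genes in Tumor-macrophage. Its level was 27.0, 31.9 and 25.9 FPKM for Ctrl-AM, 55.1, 32.8 and 52.9 for Tumor-AM, and 271, 218 and 283 for Tumor-macrophage. Tumor-AM 2 lay just above the highest Ctrl-AM sample, and Tumor-macrophage was far above both AM groups. Tumor-macrophage exceeded Tumor-AM 5.48-fold in mean FPKM, a log2 change of 2.46 ± 0.18 (SE, adjusted p = 1.16e-06 by limma). Between Tumor-AM and Ctrl-AM the log2 change was 0.68 ± 0.18 (SE, adjusted p = 0.0407 by limma). It passed in 6 of the 18 other settings tried, with adjusted p-values from 0.00292 to 0.134, and leaving out any 1 of Ctrl-AM 1, 2 and 3 (0.65, 0.77 and 0.62, limma adjusted p of 0.125, 0.0588 and 0.134), of Tumor-AM 1 and 3 (0.55 and 0.58, limma adjusted p of 0.119 and 0.127) or of Tumor-macrophage 1 and 3 (0.68 each, limma adjusted p of 0.0517 and 0.0515) ended it.

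Summed markers of several other cell types had the same order as Mmp14 and Mmp2 within Tumor-AM. Within Tumor-AM, replicate 3 was highest and replicate 2 lowest for Mmp14 and Mmp2. The same order held for the summed level of the 10 monocyte-derived macrophage markers (531, 409 and 753 FPKM for Tumor-AM 1 to 3) and of 12 fibroblast and mesenchymal markers (27.4, 16.2 and 95.9). It also held for endothelial (13.6, 7.09 and 18.4), lymphocyte (8.20, 4.58 and 11.6) and dendritic cell markers (14.3, 7.81 and 14.9). The other marker lists had other orders. In Ctrl-AM 1 to 3 the monocyte-derived macrophage sums were 141, 225 and 125 FPKM, not in the order of Mmp14 and Mmp2. The fibroblast sums there were 6.89, 11.3 and 11.2 FPKM, in that order. Between Tumor-AM and Ctrl-AM, 9 of the 10 monocyte-derived macrophage markers were higher and 0 lower (median log2 change 1.22), and of the 5 fibroblast markers tested 2 were higher and 0 lower. These 2 were Lum and Col3a1 (3.13 and 1.99 on the log2 scale, limma adjusted p of 0.00736 and 0.0272), while Dcn, Mfap4 and Acta2 were not called. Mmp2 and Mmp14 are also expressed by fibroblasts. The part of any of these cell types in the Tumor-AM levels was not tested. By group means, Mmp14 in Tumor-AM was 6.66% and Mmp2 7.91% of the Tumor-macrophage level. The complement genes C1qa, C1qb and C1qc were at 0.451%, 0.692% and 0.457%, Aif1 at 0.619% and Cx3cr1 at 0.844%. The other monocyte-derived macrophage markers ran from 1.62% (Apoe) to 14.0% (Ly6c2). With the Ctrl-AM mean subtracted from that of Tumor-AM, the shares were 6.33% for Mmp14 and 5.46% for Mmp2. Those of the 10 markers then ran from 0.233% (Cx3cr1) to 6.78% (Ccr2), with Ly6c2 at 4.58%. In Tumor-macrophage 1 to 3 the fibroblast sums were 14.6, 13.8 and 23.3 FPKM. Among the fibroblast markers in Tumor-AM 2, Col1a1, Col1a2 and Fbln1 were listed at 0, while Lum was at 4.95, Dcn at 4.28 and Col3a1 at 3.47 FPKM, each above its 3 Ctrl-AM samples.

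**Figure D3:**
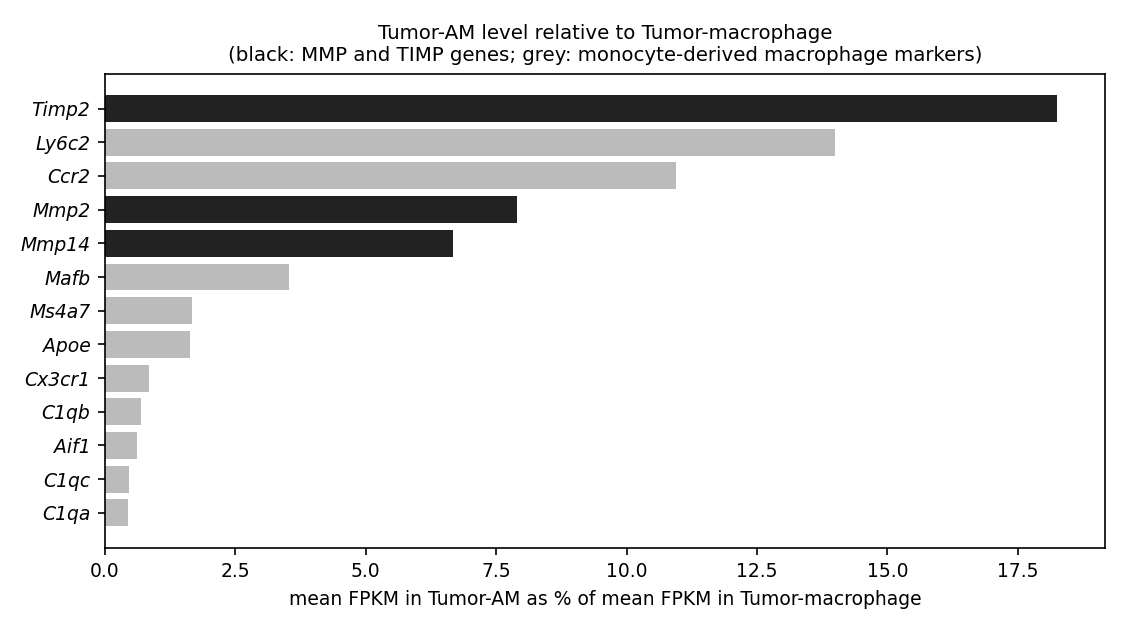
Mean FPKM in Tumor-AM as a percentage of mean FPKM in Tumor-macrophage (x axis, linear from 0) for Mmp14, Mmp2 and Timp2 (black) and 10 monocyte-derived macrophage markers (grey). Mmp14 (6.66%) and Mmp2 (7.91%) lie above 8 of the 10 markers and below Ccr2 (10.9%) and Ly6c2 (14.0%). The Ctrl-AM level is not subtracted here.

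Mmp8, Mmp12 and Mmp13 are neighbours in a cluster of 10 MMP genes on chromosome 9, yet they differed in opposite directions between the populations. In GRCm38, Mmp13 spans 7272514 to 7283331, Mmp12 spans 7344381 to 7369499 and Mmp8 spans 7558456 to 7568485, all on the plus strand, and the main coding transcript of each has 10 exons. Mmp13 and Mmp8 encode collagenases that cut fibrillar collagen, and MMP8 is best known from neutrophil granules. The other 7 genes of the cluster (Mmp1a, Mmp1b, Mmp3, Mmp7, Mmp10, Mmp20 and Mmp27) did not exceed 1.84 FPKM in any sample. Promoter windows around the RefSeq start sites (GRCm38.p6, from 250 bases before to 50 after each start) are shown for these 3 genes because neighbours of this cluster moved apart. Each is written 5′ to 3′ with the matched motif in capitals, TGANTCA for AP-1 and GAGGAAGT, here on the opposite strand, for PU.1.
Mmp13, AP-1, chr9:7272469-7272495, plus strand: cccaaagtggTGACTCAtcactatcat
Mmp12, AP-1, chr9:7347320-7347346, plus strand: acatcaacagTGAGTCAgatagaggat
Mmp12, PU.1, chr9:7344299-7344326, plus strand: cacttcacccACTTCCTCttccaagact
Mmp8, PU.1, chr9:7558198-7558225, plus strand: aactagcacaACTTCCTCattacacaca
Both strands were searched. The AP-1 letters start 35 bases before the start of Mmp13 and 44 bases before the second of 2 listed starts of Mmp12, and the PU.1 letters lie before the first. Of 32851 mouse promoter windows of this length, 7.81% held the AP-1 letters and 3.2% the PU.1 letters. Windows were listed for 7 of the 10 genes, of which 2 held AP-1, 2 PU.1, 3 a TATA box (TATAAA, 13.6% of all windows), 4 a GC box (GGGCGG, 35.7%) and 0 the STAT letters (TTCNNNGAA, 8.3%). These matches describe letters only and do not show binding.

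Mmp13 was nearly confined to Tumor-macrophage among these samples. It was at 0.231, 0.0578 and 0.0868 FPKM for Ctrl-AM, 0.245, 0.0646 and 0.237 for Tumor-AM, and 12.9, 28.7 and 19.1 for Tumor-macrophage. The AM groups overlapped, and every Tumor-macrophage sample was far above them, with an estimated 343 to 783 reads. Mean FPKM was 111-fold higher in Tumor-macrophage than in Tumor-AM, a ratio that rests on few reads in AMs, and the log2 change was 4.10 ± 0.23 (SE). Mmp13 passed the filter through the Tumor-macrophage samples alone, so this change is given without a test. Between the AM groups the change was 0.07 ± 0.23 (SE, 95% interval −0.44 to 0.59, adjusted p = 0.893 by limma).

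Mmp12 was present in all 3 populations. Its level was 11.7, 35.6 and 11.7 FPKM for Ctrl-AM, 9.97, 16.8 and 14.4 for Tumor-AM, and 51.9, 69.6 and 68.8 for Tumor-macrophage. Ctrl-AM 2 stood above the other AM samples, and Tumor-macrophage was above all of them. Tumor-macrophage exceeded Tumor-AM by 2.15 ± 0.36 on the log2 scale (SE, adjusted p = 0.000557 by limma) and Ctrl-AM by 1.82 ± 0.36 (SE, adjusted p = 0.00146 by limma). Tumor-AM differed from Ctrl-AM by −0.33 ± 0.36 (SE, 95% interval −1.13 to 0.47, adjusted p = 0.64 by limma) and 0.18 without Ctrl-AM 2 (limma adjusted p = 0.665), so that 1 library set its direction.

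Mmp8 was the AM-rich gene of the cluster. It was at 34.6, 43.1 and 40.9 FPKM for Ctrl-AM, 40.1, 49.1 and 30.7 for Tumor-AM, and 6.04, 4.75 and 5.60 for Tumor-macrophage. The AM groups overlapped, and Tumor-macrophage lay below both. The log2 change between Tumor-AM and Ctrl-AM was 0.00 ± 0.16 (SE, 95% interval −0.36 to 0.35, adjusted p = 0.992 by limma). Tumor-macrophage fell by 2.64 ± 0.16 on the log2 scale relative to Tumor-AM (SE, adjusted p = 2.32e-07 by limma), and mean FPKM was 7.31-fold higher in Tumor-AM. The summed level of 11 neutrophil markers was 112 to 134 FPKM for Ctrl-AM, 111 to 165 for Tumor-AM and 91.2 to 139 for Tumor-macrophage, of which S100a8 made up the most. Of the 5 neutrophil markers tested, 1 was higher and 2 were lower in Tumor-macrophage relative to Tumor-AM. Csf3r was higher (1.75 on the log2 scale, limma adjusted p = 0.000128). S100a8 and Cxcr2 were lower (−0.89 and −0.83, limma adjusted p of 0.00256 and 0.000373). S100a9 and Retnlg were not called (0.99 and 0.14, limma adjusted p of 0.0574 and 0.717). Cxcr2, the gene of a neutrophil chemokine receptor, was at 4.13 to 4.23, 4.604 to 6.08 and 2.19 to 2.85 FPKM in the 3 groups. It was lowest in Tumor-macrophage, as Mmp8 was. Csf3r was highest there, at 10.49 to 13.997, 7.39 to 16.1 and 29.8 to 42.1 FPKM. The markers thus went in different directions, and the part of neutrophils in the Mmp8 level was not tested. Elane, which encodes neutrophil elastase, was listed at 0 in all 9 samples, Camp was listed at 0 in 8 of 9, and Ltf did not exceed 0.225 FPKM. The other listed markers under the filter, Ngp, Prtn3 and Mpo, reached at most 1.798, 0.315 and 0.102 FPKM.

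Mmp9, the gene of the other gelatinase, was low in AMs and raised in Tumor-macrophage. It was at 0.686, 0.385 and 0.505 FPKM for Ctrl-AM, 0.350, 0.323 and 0.763 for Tumor-AM, and 13.0, 6.55 and 11.4 for Tumor-macrophage. Both AM groups covered the same range, and the lowest Tumor-macrophage sample was above all 6. Tumor-macrophage exceeded Tumor-AM 21.5-fold in mean FPKM, a log2 change of 2.90 ± 0.22 (SE). Mmp9 passed the filter through the Tumor-macrophage samples alone, so this change is given without a test. The AM groups differed by −0.05 ± 0.22 (SE, 95% interval −0.55 to 0.44, adjusted p = 0.918 by limma). Lcn2, whose product lipocalin 2 binds MMP9, was not called in any comparison, at 1.44 ± 0.481 FPKM for Ctrl-AM, 2.1 ± 2.04 for Tumor-AM and 1.09 ± 0.62 for Tumor-macrophage (SD, n = 3 each).

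Mmp19 was the 1 gene of the 10 with its highest level in Tumor-AM, without overlap with the other groups. It encodes a secreted MMP that cuts basement membrane components, and its gene is at chr10:128790910-128800824 (plus strand), with 9 exons in its main coding transcript. The level was 49.97, 58.1 and 53.4 FPKM for Ctrl-AM, 116, 176 and 157 for Tumor-AM, and 35.3, 30.2 and 31.9 for Tumor-macrophage. The 3 groups were fully separated, with Tumor-macrophage lowest. The means were 53.8 ± 4.09, 149.6 ± 30.3 and 32.4 ± 2.59 FPKM (SD, n = 3 each). Tumor-AM exceeded Ctrl-AM 2.78-fold in mean FPKM, a log2 change of 1.44 ± 0.14 (SE, adjusted p = 0.000284 by limma), and Tumor-macrophage fell by 2.15 ± 0.14 on the log2 scale relative to Tumor-AM (SE, adjusted p = 3.49e-07 by limma). Relative to Ctrl-AM, Tumor-macrophage fell by 0.71 ± 0.14 (SE, adjusted p = 0.00115 by limma).

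The 3′ end of Mmp19 overlaps genes on the opposite strand, and the use of strand in the counting was not stated. Of the 75-base windows of the Mmp19 transcript, 24.1% also occur, as the reverse complement, in transcripts of Tmem198b or of an antisense gene. Tmem198b itself was at 25.3, 32.8 and 30.7 FPKM for Ctrl-AM, 42.8, 59.3 and 62.0 for Tumor-AM, and 21.3, 18.9 and 19.96 for Tumor-macrophage. It thus moved with Mmp19, with log2 changes of 0.85 between Tumor-AM and Ctrl-AM and −1.39 between Tumor-macrophage and Tumor-AM (limma adjusted p of 0.00457 and 1.49e-05). Reads of these genes cannot be told apart in the shared windows.

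Timp1 and Timp3 were minor inhibitors by level. Timp1, which encodes a soluble inhibitor that also binds the tetraspanin CD63, was at 1.35, 1.78 and 0.946 FPKM for Ctrl-AM, 1.40, 4.34 and 2.36 for Tumor-AM, and 2.65, 12.5 and 6.95 for Tumor-macrophage. Replicate 2 was highest in each group, and Tumor-AM overlapped with both other groups. Tumor-macrophage was above Ctrl-AM by a log2 difference of 1.65 ± 0.42 (SE, adjusted p = 0.00726 by limma). The change from Tumor-AM to Tumor-macrophage was 1.06 ± 0.42 (SE, 95% interval 0.12 to 2.00, adjusted p = 0.0615 by limma). It was past the threshold without Tumor-AM 2 (1.36, limma adjusted p = 0.0314) or without Tumor-macrophage 1 (1.56, limma adjusted p = 0.00429), and was 0.62 without Tumor-macrophage 2 (limma adjusted p = 0.214). With the replicate number as a block it was 1.06 (limma adjusted p = 0.012). Tumor-AM and Ctrl-AM differed by 0.59 ± 0.42 (SE, 95% interval −0.36 to 1.53, adjusted p = 0.444 by limma). Of the markers of eosinophils, basophils and mast cells only Cpa3 passed the filter. These markers summed to 2.84, 11.1 and 6.31 FPKM for Tumor-macrophage 1 to 3, the same order as Timp1. In the AM groups their sum was lowest in replicate 2, where Timp1 was highest. It was 1.14, 0.064 and 0.351 FPKM for Ctrl-AM 1 to 3 and 0.0953, 0 and 0.0218 for Tumor-AM 1 to 3. The part of these cells in the Timp1 level was not tested.

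Timp3 encodes the inhibitor that binds to the matrix and also blocks several ADAM proteases, and it was the 1 TIMP gene that was highest in Ctrl-AM. Its level was 1.97, 1.85 and 2.66 FPKM for Ctrl-AM, 0.696, 0.160 and 1.09 for Tumor-AM, and 0.562, 0.196 and 0.698 for Tumor-macrophage. Every sample of tumor-bearing mice lay below every Ctrl-AM sample, and Tumor-AM and Tumor-macrophage overlapped. Tumor-AM fell by 0.97 ± 0.22 on the log2 scale relative to Ctrl-AM (SE, adjusted p = 0.0227 by limma), and Tumor-macrophage by 1.10 ± 0.22 (SE, adjusted p = 0.00183 by limma). Timp3 passed the filter only because it was high in Ctrl-AM, so these calls are no support. The first call was lost without Ctrl-AM 1 (−1.01, limma adjusted p = 0.0635), Ctrl-AM 3 (−0.86, limma adjusted p = 0.0919), Tumor-AM 1 (−1.01, limma adjusted p = 0.0504) or Tumor-AM 2 (−0.74, limma adjusted p = 0.0542). The change from Tumor-AM to Tumor-macrophage was −0.13 ± 0.22 (SE, 95% interval −0.62 to 0.37, adjusted p = 0.672 by limma). Timp3 is also expressed by endothelial and stromal cells. The 8 endothelial markers summed to 15.3, 16.9 and 12.4 FPKM for Ctrl-AM, 13.6, 7.09 and 18.4 for Tumor-AM, and 9.76, 2.61 and 11.1 for Tumor-macrophage. In both populations of tumor-bearing mice, replicates had the same order in these sums as in Timp3. The fibroblast and mesenchymal markers had that order too, with sums of 27.4, 16.2 and 95.9 FPKM for Tumor-AM and 14.6, 13.8 and 23.3 for Tumor-macrophage. In Ctrl-AM neither list had the order of Timp3, and the fibroblast sums were 6.89, 11.3 and 11.2 FPKM. The highest endothelial sum of all was in Tumor-AM 3. The part of such cells in the Timp3 level was not tested. Of the 75-base windows of the Timp3 transcript, 35.69% also occur on the opposite strand in Syn3, which did not exceed 0.245 FPKM.

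The summed levels of the 7 MMP genes and the 3 TIMP genes shifted in composition between the groups. The MMP sum was 97.7, 139.5 and 107.9 FPKM for Ctrl-AM, 182, 249 and 222 for Tumor-AM, and 330.03, 323 and 342 for Tumor-macrophage. Mmp19 made up 41.7% to 51.2% of it in Ctrl-AM, 63.9% to 70.7% in Tumor-AM and 9.33% to 10.7% in Tumor-macrophage, where Mmp14 made up 49.96% to 52.2%. The TIMP sum was 29.5 to 35.5 FPKM for Ctrl-AM, 37.3 to 57.2 for Tumor-AM and 231 to 290.5 for Tumor-macrophage, and Timp2 made up between 87.8% and 98.8% of it in every sample. The ratio of the MMP sum to the TIMP sum was 3.22 to 3.93 for Ctrl-AM, 3.18 to 6.66 for Tumor-AM and 1.18 to 1.40 for Tumor-macrophage. Timp2 exceeded Mmp14 by 36.8-fold to 132-fold in Ctrl-AM, 3.37-fold to 5.82-fold in Tumor-AM and 1.35-fold to 1.64-fold in Tumor-macrophage. These sums and ratios are of transcript levels and are given as a description, without a test.

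**Figure D4:**
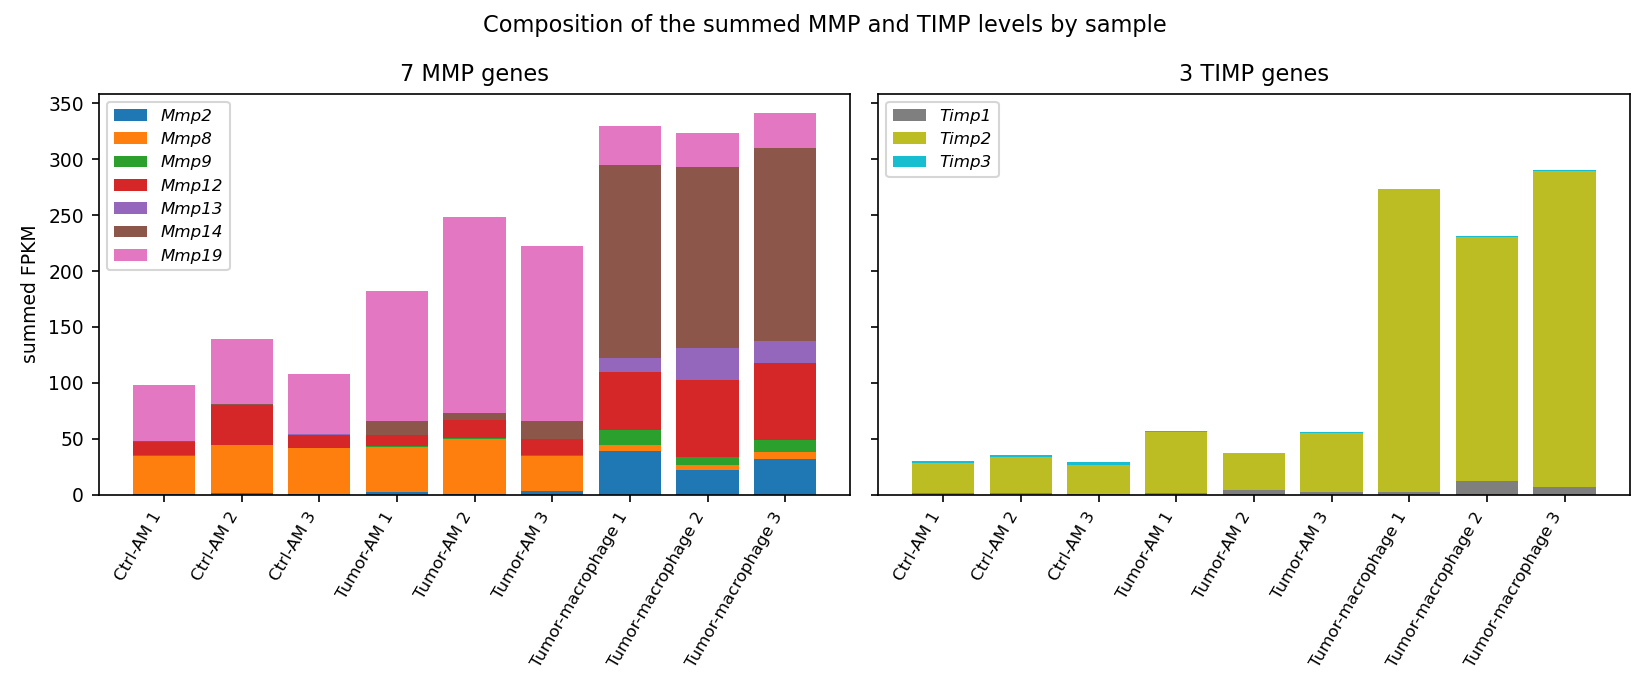
Summed FPKM (y axis, linear from 0, shared by both panels) of the 7 MMP genes (left) and the 3 TIMP genes (right) in each of the 9 samples (x axis), stacked by gene. Mmp19 and Mmp8 make up most of the MMP bars of the AM samples, Mmp14 between 49.96% and 52.2% of those of Tumor-macrophage, and Timp2 nearly all of every TIMP bar.

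The rest of the family was hardly detected. Of 17 other MMP and TIMP genes, 16 were under the filter, Mmp1a and Mmp7 were listed at 0 in all 9 samples, and the highest value of the 16 was 1.84 FPKM for Mmp3 in Ctrl-AM 2. The exception was Mmp25, which encodes a lipid-anchored leukocyte MMP. It was at 0.0944 ± 0.068 FPKM for Ctrl-AM, 0.143 ± 0.136 for Tumor-AM and 2.55 ± 0.349 for Tumor-macrophage (SD, n = 3 each). It passed the filter through the Tumor-macrophage samples alone, and these values are given without a test.

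Genes for activators, docking partners and clearance receptors of MMPs were then compared. Of 22 genes, 14 were tested. Between Tumor-AM and Ctrl-AM, 3 were higher and 0 lower, where 10.3% of all genes tested were called, and the median of the log2 changes was 0.18 beside 0.01 over all genes. They were Cd63 (1.52, limma adjusted p = 0.00277), a tetraspanin gene, Thbs1 (0.91, limma adjusted p = 0.0044), which encodes thrombospondin 1, and Plaur (0.37, limma adjusted p = 0.0115), the gene of the urokinase receptor. Between Tumor-macrophage and Tumor-AM, 5 were higher and 6 lower, where 48.6% of all genes were called, with a median of −0.29 beside 0.00. Thbs1 rose most, from a mean of 6.50 ± 0.925 up to 179 ± 30.0 FPKM (SD, n = 3 each), which is 4.58 on the log2 scale (limma adjusted p = 2.98e-09). Plau, the gene of urokinase, is among the 5 but passed the filter through Tumor-macrophage alone, at 0.334 ± 0.246 FPKM for Tumor-AM and 6.22 ± 0.461 for Tumor-macrophage (SD, n = 3 each). Cd9 fell most, by 3.21 (limma adjusted p = 7.7e-08), and Cd44, which encodes a hyaluronan receptor that docks MMP9 and MMP14, fell by 1.61 (limma adjusted p = 1.36e-07). Plaur fell by 1.26, Cd63 rose by 1.24 and Bsg, which encodes the MMP inducer basigin, rose by 0.36 (limma adjusted p of 1.82e-07, 0.000976 and 0.00128). Furin, the gene of the convertase that activates proMMP14, was singled out after its values were seen. It was at 54.6 ± 4.47 FPKM for Ctrl-AM, 65.1 ± 10.9 for Tumor-AM and 38.3 ± 3.43 for Tumor-macrophage (SD, n = 3 each), and fell from Tumor-AM to Tumor-macrophage by 0.74 on the log2 scale (limma adjusted p = 0.000587). Reck and A2m, genes of other MMP inhibitors, did not exceed 0.101 and 0.0715 FPKM. Between Tumor-macrophage and Ctrl-AM, 6 were higher (Plau among them) and 6 lower, where 54.8% of all genes were called.

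Matrix proteins that MMPs cut were represented by 14 genes, of which 5 were tested. Between Tumor-AM and Ctrl-AM, 4 were higher and 0 lower, where 10.3% of all genes were called, and the median of the log2 changes was 1.21 beside 0.01. Spp1, the gene of osteopontin, went from a mean of 753 ± 35.7 up to 3744 ± 556 FPKM (SD, n = 3 each), which is 2.30 on the log2 scale (limma adjusted p = 1.7e-05), and Fn1, the gene of fibronectin, rose by 1.21 (limma adjusted p = 0.000506). Col3a1 rose by 1.99 (limma adjusted p = 0.0272) with uneven values of 4.84, 3.47 and 21.0 FPKM, and it is also one of the fibroblast markers above. Spp1 and Fn1 fell from Tumor-AM to Tumor-macrophage by 1.36 and 1.92 on the log2 scale (limma adjusted p of 8.06e-06 and 6.08e-07), and the laminin gene Lamc1 was the 1 of the 5 that rose, by 0.42 (limma adjusted p = 0.0236), where 48.6% of all genes were called. Between Tumor-macrophage and Ctrl-AM, 2 were higher and 1 lower, where 54.8% of all genes were called.

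Likeness of pattern was measured as the root mean square difference in log2(FPKM + 1) over the 9 samples after each gene's own mean was removed, with smaller values for closer patterns. It is a description over 3 groups of samples, in which many genes resemble each other. The nearest genes to Mmp14 were Pdlim4 (0.532), Serpina3g (0.556) and Cxcl16 (0.557), and those nearest to Mmp19 were Ptgir (0.16), Fn1 (0.235) and Rgcc (0.287). Timp2 was nearest to Nsmaf (0.113), and Mmp8 to Sh3tc1 (0.146), Nedd9 (0.158) and Cd164 (0.16). Mmp13 was nearest to Ms4a4c (0.248), Mmp9 to Abca9 (0.161), Mmp2 to Adgre5 (0.22), Mmp12 to Nlrc3 (0.394), Timp1 to Ccl9 (0.245) and Timp3 to Sept4 (0.154). None of the 10 genes was among the 3 nearest of another.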

How the data were processed

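RNA-seq libraries (9) of sorted mouse lung macrophages were analysed (3 groups, n = 3 each). The authors deposited 1 FPKM value per gene symbol and sample. According to their methods and processing notes, full-length cDNA (SMART-Seq HT) was sequenced in single-end mode, mapped to mm10 with TopHat2 2.1.1 and Bowtie2, and quantified with the Cufflinks package (Cuffdiff 2.2.1). The annotation, the handling of multi-mapped reads and the use of strand are not given in the sources used here. FPKM does not correct for a few abundant RNAs that take up reads in 1 population. No label says what same-numbered samples share, and whether Tumor-AM and Tumor-macrophage samples came from the same mice is not stated. The study gives 3 mice for each of the populations.

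Values were analysed as log2(FPKM + 1), which understates changes of low genes, for the 10686 genes with at least 1 FPKM in at least 3 of 9 samples. limma 3.58.1 (R 4.3.3, intensity trend, all 9 samples) gave two-sided tests, adjusted with the Benjamini-Hochberg method over all genes tested, with 0.05 as the threshold. The procedure was tested on simulated log2 values with normal noise. It recovered 83% of 2-fold and 96% of 4-fold changes, and 4.28% of its calls were unchanged genes. Counting noise was not simulated, so the test does not cover rare transcripts. Errors are SE of this fit or SD over samples. Fold changes without "log2" are ratios of mean FPKM. Depth was estimated from ratios of low values between samples, of which 92.4% to 96.8% fell on a grid of whole reads, against at most 69.8% at the next best shift. Read numbers given with a gene are FPKM times transcript length times this depth, and cover counting error only. Gene positions are from GENCODE vM21 (GRCm38) and promoter sequences from RefSeq (GRCm38.p6). Python 3.11.15 was used for the rest. The 10 genes, the lists and the naming rule were chosen with earlier results of these data known. All 10 genes are named. From other lists the rule was to name the 3 called genes with the largest change per comparison and highly expressed ones. It was not followed throughout. The highly expressed Ctss, Ctsz and Cstb were left out of the Results. For Tumor-macrophage against Ctrl-AM the lists are given as counts. Furin, Lcn2, Reck, A2m and the single marker genes fall outside this rule and were named after their values were seen. In other settings the pseudocount, filter, scaling, prior variance, fitted groups, replicate block and single samples were varied.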

Additional observations from a re-analysis of the deposited data

How the results depend on the processing

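Of the 22 called changes of the 10 genes, 20 kept their call in each other setting that gave a value, and 0 reversed. The exceptions were Timp2 and Timp3 between Tumor-AM and Ctrl-AM. The calls of Mmp9 and Mmp13 between Tumor-macrophage and either AM group are among the 20 and, owing to the filter, are no support. The same holds for the call of Timp3 between Tumor-macrophage and Ctrl-AM. Timp2 was not past the threshold without the filter (limma adjusted p = 0.103), in TPM units (0.55, adjusted p = 0.079), with quantile normalization (0.63, adjusted p = 0.0616), with a constant prior variance (adjusted p = 0.0621) or when 2 groups were fitted (adjusted p = 0.0567). Timp3 was not past it with a pseudocount of 0.1 (−1.83, adjusted p = 0.0704) or without the filter (adjusted p = 0.0575). The count of called members between these groups was 4, and 2 without the filter. It ran from 2 to 4 when 1 sample was left out, and the count of all genes called from 535 to 1255, beside 1100. For uncalled changes near 0 the direction varied. Leaving out 1 sample gave −0.16 to 0.17 for Mmp8, −0.19 to 0.0214 for Mmp9 and −0.58 to 0.18 for Mmp12 between the AM groups, and −0.36 to 0.0669 for Timp3 between Tumor-macrophage and Tumor-AM. Quantile normalization gave −0.0409 for Mmp13 between the AM groups (adjusted p = 0.942). Causes were not tested.

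Rescaling to TPM moved the median log2 change of all genes to −0.11 between the AM groups and to −0.22 between Tumor-macrophage and Ctrl-AM. Relative to that median, Timp2 was 0.66 and Mmp14 3.20 higher in Tumor-AM. Called genes split into 475 higher and 824 lower under TPM and 607 higher and 446 lower under quantile normalization, compared with 760 and 340. Between Tumor-macrophage and Ctrl-AM they split into 2130 and 4409 under TPM and 2656 and 3428 under quantile normalization, compared with 2960 and 2900, and between Tumor-macrophage and Tumor-AM into 2129 and 3129 under TPM, compared with 2588 and 2603. The filter of 5 FPKM left no value for Timp1 and Timp3, and leaving out a Tumor-macrophage sample none for Mmp9 and Mmp13.

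Across genes, r between same-numbered samples (as deviations from their group means) was −0.0615 to 0.159 over all groups, and 4 of 9 samples correlated best with their own number in both other groups. Only Tumor-AM and Tumor-macrophage samples could have come from the same mice. Between these groups r was 0.026, 0.0964 and 0.109 for the same-numbered samples 1, 2 and 3, and −0.101 to 0.00617 for the other pairs. These values do not settle whether the samples were paired. With the replicate block 4, 9 and 10 members were called in the 3 comparisons, compared with 4, 8 and 10, the addition being Timp1, and 938, 5069 and 5772 genes in all. Mmp13, Timp1, Mmp9 and Mmp14 rested on few reads in Ctrl-AM, at most 6.8, 19.7, 23.9 and 28.2 per sample. Mmp2 rested on 9.7 in Ctrl-AM 1. Timp1 rested on 12.8 to 42.9 reads in Tumor-AM and 23.2 in Tumor-macrophage 1. Timp3 rested on 8.5 in Tumor-AM 2 and 9.4 in Tumor-macrophage 2.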

Other observations

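Other protease genes of the matrix were compared as well. Of 15 ADAM and ADAMTS genes, 8 were tested, and relative to Ctrl-AM 4 were higher and 0 lower in Tumor-AM, where 10.3% of all genes tested were called. The median of the log2 changes was 0.24, beside 0.01 over all genes. Adam8, which encodes a leukocyte sheddase, was at 2.62 ± 0.157 FPKM for Ctrl-AM, 12.4 ± 0.653 for Tumor-AM and 206 ± 67.7 for Tumor-macrophage (SD, n = 3 each), with log2 changes of 1.89 from Ctrl-AM to Tumor-AM and 3.89 from Tumor-AM to Tumor-macrophage (limma adjusted p of 0.000365 and 5.22e-08). The 3 groups did not overlap. Adam15 and Adam10 exceeded their Ctrl-AM levels by 0.73 and 0.47 on the log2 scale in Tumor-AM (limma adjusted p of 0.00487 and 0.00376). Between Tumor-macrophage and Tumor-AM, 6 were higher and 1 lower, where 48.6% of all genes were called, and Adam15 rose by 1.21 (limma adjusted p = 1.35e-05). Adam19 is among the 6 but passed the filter through Tumor-macrophage alone, at 0.149 ± 0.0787 FPKM for Tumor-AM and 4.72 ± 1.35 for Tumor-macrophage (SD, n = 3 each). Between Tumor-macrophage and Ctrl-AM, 6 were higher (Adam19 among them) and 2 lower, where 54.8% of all genes were called.

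All 8 genes of a list of cathepsins and cystatins were tested. Relative to Ctrl-AM, 6 were higher and 0 lower in Tumor-AM, where 10.3% of all genes were called, and the median over the list was 0.56 on the log2 scale beside 0.01. Ctsk, the gene of cathepsin K, a collagen-degrading protease, averaged 398 ± 22.1 FPKM for Ctrl-AM and 738 ± 158 for Tumor-AM (SD, n = 3 each), which is 0.87 on the log2 scale (limma adjusted p = 0.0234), and was at 48.1 ± 13.0 for Tumor-macrophage, lower by 3.92 than in Tumor-AM on the log2 scale as the 1 gene of the list that fell there. Ctsl and Ctsd, the genes of cathepsins L and D, were next in size in Tumor-AM, at 0.62 and 0.61 above Ctrl-AM (limma adjusted p of 0.00411 and 0.0286), and Ctsd had the highest level of the list in that group, 13455 ± 1198 FPKM (SD, n = 3). Ctsb rose by 0.56 and then by 2.03 (limma adjusted p of 0.00222 and 1.12e-08). Relative to Tumor-AM, 6 of the 8 genes were higher in Tumor-macrophage and 1 was lower, where 48.6% of all genes were called, and Cst3, the gene of the inhibitor cystatin C, rose by 1.29 (limma adjusted p = 1.73e-06). Between Tumor-macrophage and Ctrl-AM, 6 were higher and 1 lower, where 54.8% of all genes were called. No called change of the lists turned direction without the filter, under TPM, median-ratio scaling or quantile normalization.

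Of the remaining marker lists, 10 lung epithelium markers summed to 53.1 to 205 FPKM for Ctrl-AM, 31.1 to 83.5 for Tumor-AM and 19.5 to 73.6 for Tumor-macrophage. Lymphocyte markers, of which 7 were listed, summed to 11.9 to 15.6, 4.58 to 11.6 and 21.8 to 43.1 FPKM, and 7 dendritic cell markers to 15.4 to 18.1, 7.81 to 14.9 and 25.2 to 56.5 FPKM. The part of such cells in the Tumor-macrophage levels of the MMP genes was not tested.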
